A study of Mus musculus with 15 samples.

Results

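The 7 genes described here write, erase or read methyl groups on DNA: the DNA methyltransferases Dnmt1 and Dnmt3a, the 5-methylcytosine dioxygenases Tet1, Tet2 and Tet3, and the methyl-CpG-binding domain genes Mbd2 and Mbd5. They were taken by name from the 32285 genes counted in single-nucleus RNA sequencing of the dorsal hippocampal formation (dHF) of female C57BL6/J mice. Methylation of cytosine in CpG dinucleotides is copied onto the new strand after DNA replication by Dnmt1 and placed on previously unmarked sites by Dnmt3a. Neurons, which no longer divide, also carry methylation outside CpG sites, for which Dnmt3a is the known writer. Tet enzymes oxidize 5-methylcytosine to 5-hydroxymethylcytosine and further forms, which base excision repair can replace with unmodified cytosine, and 5-hydroxymethylcytosine is abundant in brain. Mbd2 binds methylated CpG sites and recruits the nucleosome remodelling and deacetylase (NuRD) complex. Mbd5 carries the same kind of domain, does not bind methylated DNA in the manner of Mbd2, and is a partner of the complex that removes ubiquitin from histone H2A.

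The mice either had never mated (nulliparous, NP, matched in age) or had gone through a pregnancy and raised a litter, which is called reproductive experience (RE). Some of these dams had also been stressed late in the postpartum period by limited nesting material and daily separation from their pups (stress RE). The groups held 6 NP, 4 control RE and 5 stress RE mice, wild type throughout, with 1 library of nuclei from bilateral dHF micropunches per mouse and no pooling of mice, and mice are named here by the numbers of their labels. The labels give each mouse a batch, 1 to 3. Batches 2 and 3 held 2 mice of each group, whereas batch 1 held 2 NP mice (27 and 31), 1 stress RE mouse (70) and 0 control RE mice. The methods of the study place every group in every processing batch, so the labelled batches, which are those used below, may not be those of the methods. The punches reached beyond the dHF, since nuclei with markers of thalamus, habenula and choroid plexus were among them.

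The libraries held 40602582 to 96211264 UMIs (unique molecular identifiers, 1 for each captured transcript), with medians of 3898 to 8488 UMIs per nucleus, and 123913 of 134019 barcodes were kept after 9993 marked doublets and 113 poor barcodes were removed. NP mouse 31 stood apart: it had the fewest UMIs and the highest mitochondrial share of the 15 libraries (0.213%, lowest 0.0378%). The share of UMIs from Malat1 ran from 2.11 to 4.34% and the nuclei of the named neuronal classes from 29.0 to 54.8% of all nuclei, a share that leaves out neurons in unnamed clusters. Any pair of libraries shared at most 0.461% of their barcodes. Clustering gave 52 clusters, 48 of them with at least 50 nuclei, of which 34 were named from marker genes and joined into 23 classes (each written "-like"), and 14 stayed unnamed. Unnamed clusters held 17.2% ± 7.63 of the nuclei of NP (SD, n = 6), 12.9% ± 3.6 of control RE (n = 4) and 15.8% ± 6.67 of stress RE (n = 5) mice. The largest of them, cluster 17, carried the CA3 markers but stayed without a name because a leading gene of it is on the cortical list.

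In the mm10 (GRCm38) genome, with gene models from GENCODE, all 7 are protein-coding. The writers lie on chromosome 9 (Dnmt1, 20907209 to 20959888, minus strand) and chromosome 12 (Dnmt3a, 3806007 to 3914443, plus strand). The Tet genes lie on chromosome 10 (Tet1, 62804570 to 62908996, minus strand), chromosome 3 (Tet2, 133463679 to 133545139, minus strand) and chromosome 6 (Tet3, 83362373 to 83459084, minus strand). Of the readers, Mbd2 lies on chromosome 18 (70568189 to 70626131, plus strand) and Mbd5 on chromosome 2 (48949508 to 49325405, plus strand), where it spans 376 kb, longer than 98% of the genes tested. The UMIs come from a 3′ chemistry and carry no correction for free RNA. Levels below are therefore compared between classes or groups of mice for a given gene and never between genes. All levels are in CPM, the UMIs of a gene per 1000000 UMIs of the nuclei summed in a mouse.

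Across the 23 classes, each gene had a different order of levels, and immune cells led several of them. Tet2, Tet3 and Mbd2 were highest in border-associated macrophage-like or other immune nuclei, Dnmt1 in progenitor- or neuroblast-like nuclei, Dnmt3a in habenula-like nuclei followed by microglia-like nuclei, Tet1 in vascular leptomeningeal-like, ependymal-like and astrocyte-like nuclei, and Mbd5 in choroid plexus-like nuclei. The span from the lowest to the highest class mean was 7.98-fold for Dnmt1, 7.11-fold for Tet1, 4.18-fold for Tet3, 4.07-fold for Mbd2, 4.05-fold for Tet2 and 3.32-fold for Dnmt3a. Mbd5 was the most even, at 1.82-fold. The spans of Dnmt1 and Tet1 rest on their lowest classes, ependymal-like nuclei with 7 UMIs of Dnmt1 (5.42 CPM) and macrophage-like or other immune nuclei with 8 UMIs of Tet1 (13.5 CPM). CA2 pyramidal-like nuclei were next for both, at 9.72 and 18.8 CPM, against 43.3 and 95.9 CPM in the highest class, so the order of these 2 spans is not resolved. With mice as replicates, 0 of the 154 pairs of neighbours in these orders differed after adjustment (two-sided exact sign-flip permutation test on paired log2 CPM, Benjamini-Hochberg, smallest adjusted p = 0.121), and 23 had an unadjusted p under 0.05. The exact rank of a class next to its neighbour is therefore not resolved. A test of all pairs, added after these values were seen, found a difference for 1168 of 1771 pairs (66%). Counts of classes above or below a class, given in what follows, come from this added test, and where they take in the next class of the order, the test of neighbours, whose smallest possible p is set by the number of mice, did not separate the pair. By gene this was 131 of 253 pairs for Dnmt1, 192 for Dnmt3a, 171 for Tet1, 174 for Tet2, 171 for Tet3, 173 for Mbd2 and 156 for Mbd5. All classes of a mouse come from its 1 library, which the paired test takes into account, and the part of free RNA in the levels was not tested.

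**Figure D1:**
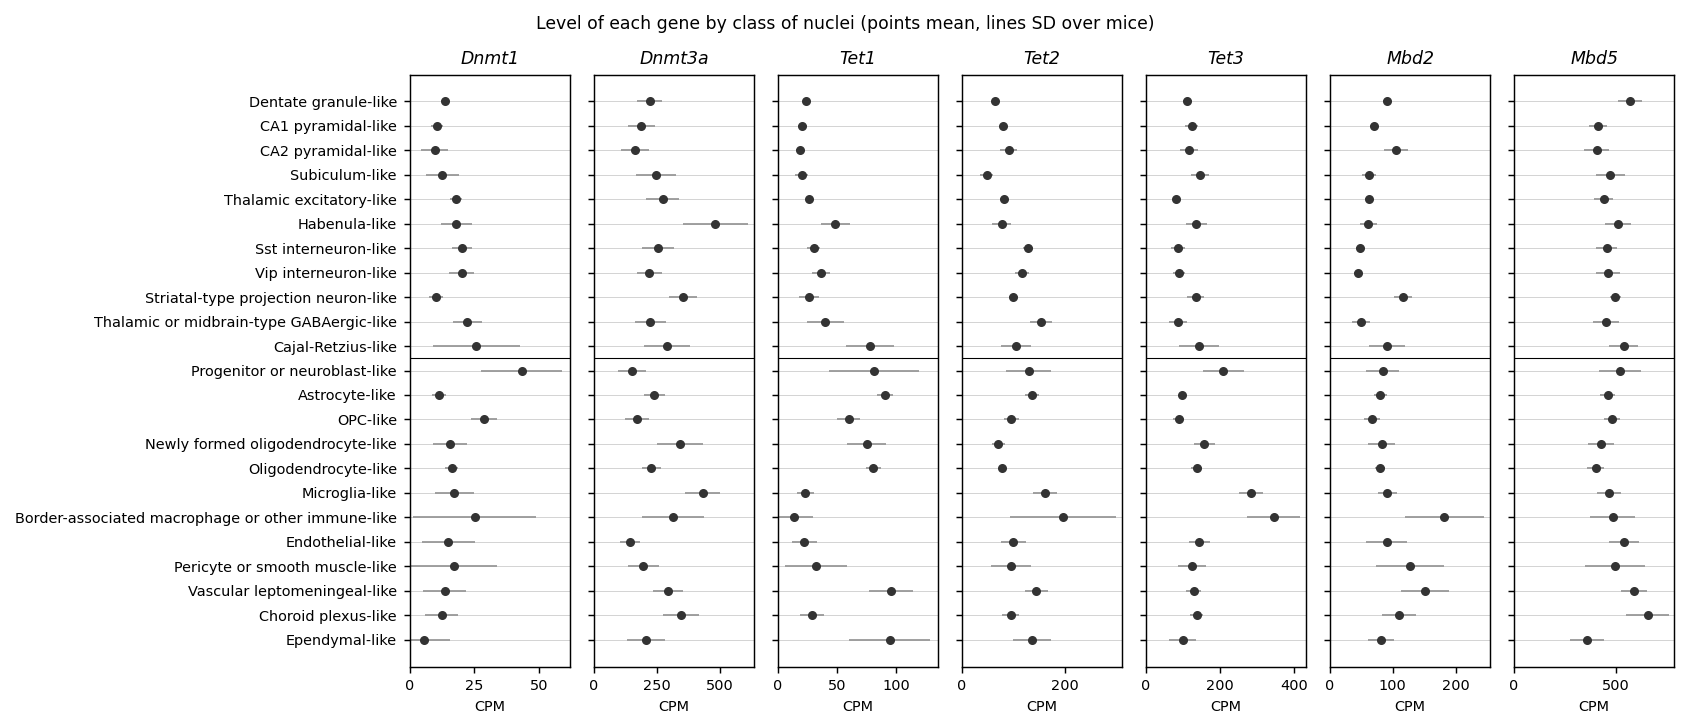
Level of each gene in CPM (x axes, each starting at 0 with its own scale) in the 23 named classes (rows, neurons above the line); points are means over mice (those that gave at least 10 such nuclei) and lines are SDs. Tet2 and Tet3 stand highest in the macrophage-like and microglia-like rows, and Tet1 is high in the astrocyte- and oligodendrocyte-like rows and low in most neuronal rows. Mbd5 lies between 359 and 655 CPM in every row.

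Dnmt1, the maintenance writer, was counted at 43.3 ± 15.6 CPM in progenitor- or neuroblast-like nuclei (SD, n = 10 mice, lowest 21.9, median 41.6, highest 67.9), from 67 UMIs in all. The NP mice held 61.7 ± 9.17 CPM (n = 3), the control RE mice 36.7 ± 1.22 (n = 3) and the stress RE mice 34.4 ± 13.8 (n = 4). Dnmt1 did not pass the filter on low counts in this class, and without the filter edgeR called it in none of the 3 comparisons. The markers of that class include genes of proliferating cells (Top2a, Mki67), and its Dnmt1 level was above that of 21 of the 22 other classes in the test of all pairs. Oligodendrocyte precursor (OPC)-like nuclei, which still divide in the adult, came next at 28.8 ± 5.12 CPM (n = 15, from 20.7 to 37.2) and were above 18 classes. Cajal-Retzius-like nuclei, which are neurons that do not divide, came after them at 25.8 ± 16.9 CPM (n = 15, 61 UMIs). Their group means were 38.1 ± 18.2 CPM for NP mice, 14 ± 9.5 for control RE mice and 20.3 ± 10.4 for stress RE mice. Dnmt1 did not pass the filter on low counts in this class either, and without the filter edgeR called it in no comparison. At the low end stood CA1 pyramidal-like nuclei at 10.6 ± 2.17 CPM (n = 15, lowest 7.63, highest 14.4) and astrocyte-like nuclei at 11.3 ± 2.67 CPM (n = 15), each above 0 and below 13 classes. The lowest mean, 5.42 CPM in ependymal-like nuclei (n = 10, SD 10.1), rests on 7 UMIs in all, and that of 25.1 CPM in macrophage-like or other immune nuclei on 20 UMIs, so neither places the class firmly.

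Dnmt3a, the de novo writer, reached 482 ± 128 CPM in habenula-like nuclei (n = 12, lowest 369, median 435, highest 791) and 431 ± 68.3 CPM in microglia-like nuclei (n = 15, lowest 333, median 407, highest 597). Each was above the other 21 classes in the test of all pairs. Hippocampal excitatory neurons lay lower, with 222 ± 49.1 CPM in dentate granule-like (n = 15), 189 ± 52.2 in CA1 pyramidal-like (n = 15) and 164 ± 56.9 in CA2 pyramidal-like nuclei (n = 15). Endothelial-like nuclei had the lowest mean, 145 ± 40 CPM (n = 15, from 55.9 to 225), and lay below 19 classes. Newly formed oligodendrocyte-like nuclei (341 ± 90.6 CPM, n = 15) had a higher mean than the OPC-like nuclei that give rise to such cells (173 ± 48 CPM, n = 15) and the oligodendrocyte-like nuclei that follow them (228 ± 37 CPM, n = 15).

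Among the erasers, Tet1 was higher in most glial classes than in most named neuronal ones. Outside neurons it was counted at 95.9 ± 18.3 CPM in vascular leptomeningeal-like (n = 15) and 94.6 ± 34.6 in ependymal-like nuclei (n = 10). Astrocyte-like nuclei held 90.5 ± 6.69 (n = 15) and oligodendrocyte-like nuclei 80.9 ± 6.23 CPM (n = 15). In neurons it was lower, at 24.2 ± 2.5 CPM in dentate granule-like (n = 15, lowest 19.2, median 24.3, highest 28), 20.9 ± 3.86 in CA1 pyramidal-like and 18.8 ± 3.64 in CA2 pyramidal-like nuclei. The astrocyte-like range, 77.6 to 105 CPM, did not meet that of any of these 3 neuronal classes. Cajal-Retzius-like nuclei were the clearest exception among named neuronal classes at 78.3 ± 20.4 CPM (n = 15, from 51.1 to 120), and microglia-like nuclei an exception among glia at 23.4 ± 7.03 CPM (n = 15). Habenula-like nuclei held 48.8 ± 12.4 CPM (n = 12), beside 59.9 ± 9.47 in OPC-like nuclei. Unnamed clusters with a neuronal best marker list ran from 15.8 ± 7.67 (cluster 43) to 72 ± 15.9 CPM (cluster 28). Among them cluster 47 held 66.2 ± 18.4, cluster 6 held 51.7 ± 5.07 and cluster 39 held 47.4 ± 11 CPM, whereas cluster 17 held 20 ± 3.1. The lowest mean, 13.5 CPM in macrophage-like or other immune nuclei, rests on 8 UMIs.

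Tet2 and Tet3 had a different order, led by immune cells. Tet2 stood at 195 ± 102 CPM in macrophage-like or other immune nuclei (n = 14, lowest 80.5, median 181, highest 482) and 161 ± 23.1 CPM in microglia-like nuclei (n = 15, from 128 to 221), each above 17 classes. The group means of the first of these were 146 ± 54.5 CPM for NP mice (n = 5), 163 ± 60.1 for control RE mice (n = 4) and 270 ± 132 for stress RE mice (n = 5). In NP mice it lay below microglia-like nuclei (163 ± 33.5). These means rest on 130 UMIs in all, and edgeR called no difference between groups there, without the filter on low counts either. Within the named neuronal classes Tet2 took its highest means in GABAergic ones: 153 ± 22 CPM in thalamic or midbrain-type GABAergic-like (n = 14), 128 ± 9.95 in Sst interneuron-like (n = 15) and 117 ± 13.8 in Vip interneuron-like nuclei (n = 15). The first of these held 441 nuclei. Unnamed cluster 6, of 4292 nuclei and with the same best marker list, held only 83.9 ± 6.58 CPM (n = 15, from 75.6 to 97.1). That was near the 81.7 ± 7.13 CPM of thalamic excitatory-like nuclei. Striatal-type projection neuron-like nuclei, also GABAergic, held 99.6 ± 8.96 CPM (n = 8, from 86.7 to 114) and overlapped with excitatory CA2 pyramidal-like nuclei at 90.4 ± 16 (n = 15, from 64.8 to 119). CA1 pyramidal-like nuclei were at 79.1 ± 5.29 CPM (n = 15). Tet2 was at 63.4 ± 2.81 CPM in dentate granule-like nuclei (n = 15, from 58.5 to 68.7) and at 48.2 ± 12.5 in subiculum-like nuclei (n = 13), the lowest class mean. The Sst-like range, 113 to 146 CPM, lay wholly above the dentate granule-like range. Tet3 reached 345 ± 70.8 CPM in macrophage-like or other immune nuclei (n = 14, lowest 226, median 361, highest 494) and 285 ± 32.5 CPM in microglia-like nuclei (n = 15, from 237 to 346), the highest class means of this gene. Within neurons Tet3 was at 146 ± 25.1 CPM in subiculum-like and 124 ± 17.3 in CA1 pyramidal-like nuclei, against 87.2 ± 19.7 in Sst-like, 89.2 ± 16 in Vip-like and 82.4 ± 10 CPM in thalamic excitatory-like nuclei, its lowest class. The striatal-type projection neuron-like nuclei, which are GABAergic, were at 135 ± 22.7 CPM and the dentate granule-like nuclei at 112 ± 12.4, so Tet3 did not divide the GABAergic from the excitatory classes.

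Of the readers, Mbd2 stood at 182 ± 62.5 CPM in macrophage-like or other immune nuclei (n = 14, lowest 80.3, median 184, highest 326) and 151 ± 37.9 CPM in vascular leptomeningeal-like nuclei (n = 15). Dentate granule-like nuclei held 91.2 ± 5.97 CPM (n = 15, from 82.3 to 101). The interneurons were lowest, at 48.1 ± 6.35 in Sst-like (n = 15, from 30.9 to 58.3) and 44.8 ± 6.71 CPM in Vip-like nuclei (n = 15, from 36.5 to 58.6), each below 20 classes, and neither range met that of dentate granule-like nuclei. Mbd5 ran from 655 ± 106 CPM in choroid plexus-like nuclei (n = 13, lowest 443, median 669, highest 814) to 359 ± 82.2 CPM in ependymal-like nuclei (n = 10, 303 UMIs). Dentate granule-like nuclei were high as well, at 567 ± 59.4 CPM (n = 15), above 17 classes, whereas CA1 pyramidal-like (411 ± 42.6 CPM, n = 15) and CA2 pyramidal-like nuclei (405 ± 59.6 CPM, n = 15) were near the lower end.

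The genes most alike to each member over the 23 class levels, out of 14614 genes compared, were found by Pearson's r of log2(CPM + 1), as a description of classes that share libraries. For Dnmt1 they were Nsd2 (r = 0.870), Blm (0.867) and Lig1 (0.850), of which Lig1 encodes DNA ligase 1, an enzyme of DNA replication, and Blm a DNA helicase of repair. For Dnmt3a the first was Dnmt3aos (0.723), the gene named as its opposite strand, whose reads may not be told apart from those of Dnmt3a where strand was not used in counting, which the sources used here do not give, followed by Zpbp (0.672) and 4933439K11Rik (0.656). Tet1 was most like Ino80dos (0.896), Glt8d1 (0.895) and Gsto2 (0.869), and Tet2 most like Scpep1 (0.802), Cklf (0.796) and 3110040N11Rik (0.784). Grb2 (0.923), an adaptor of receptor signalling, led for Tet3, with Dctn5 (0.876) and Dbnl (0.867) after it. The readers came with 1700054A03Rik (0.857), Fgfr1op2 (0.843) and Pdpk1 (0.833) for Mbd2, and with Rev1 (0.828), Srr (0.826) and Myg1 (0.778) for Mbd5.

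Over all nuclei of a mouse, here called the whole punch, no difference between groups was called for any of the 7 genes. All 7 passed the filter on low counts, and edgeR's quasi-likelihood test called 0 of 7 at a Benjamini-Hochberg adjusted p under 0.05 in each of the 3 comparisons, which share groups of mice. Of all 21165 genes tested, 0.00472% were called between control RE and NP (1 gene, no member), and 0% in each of the others. None of the 21 values had an unadjusted p under 0.05 by edgeR or DESeq2 (by edgeR 3.98% of all genes for control RE against NP, 0.85% for stress RE against control RE and 4.02% for stress RE against NP). In the whole punch, fewer cells of a type and less RNA per cell cannot be told apart.

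**Figure D2:**
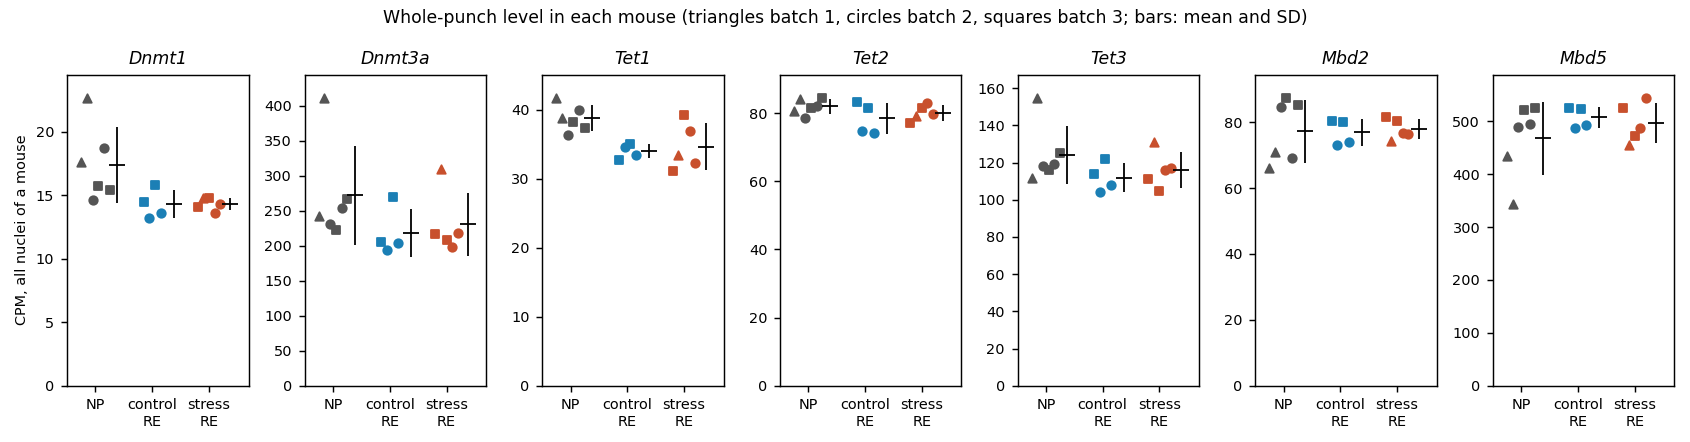
Level of each gene in CPM (y axes, each starting at 0 with its own scale) over all nuclei of each of the 15 mice, by group (x axis) and batch (symbols), with the mean and SD of each group as bars. Mouse 31 is the high NP triangle for Dnmt3a (412 CPM) and the low one for Mbd5 (344 CPM), and the control RE and NP mice do not overlap for Tet1 in CPM, though they did after TMM scaling.

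For Dnmt3a the NP mice ran from 222 to 412 CPM with a median of 249. The control RE mice were at 206 (mouse 66), 194 (72), 270 (87) and 204 CPM (88), and the stress RE mice at 217 (43), 310 (70), 208 (75), 199 (77) and 219 CPM (90). The groups overlapped, and the highest NP mouse, 31, lay far above the second-highest, 73, at 267 CPM. The means were 272 ± 70.6 (SD, n = 6), 218 ± 34.6 (n = 4) and 231 ± 45.1 CPM (n = 5). The log2 fold change of control RE against NP was -0.24 (SE 0.19, 95% interval -0.65 to 0.17, adjusted p = 0.928), that of stress RE against NP -0.15 (SE 0.17, -0.53 to 0.22, adjusted p = 0.999) and that of stress RE against control RE 0.09 (SE 0.19, -0.33 to 0.51, adjusted p = 1). Without NP mouse 31 the first of these was -0.09 and the second -0.02, and without stress RE mouse 70 the second was -0.31 and the third turned to -0.07. Dnmt1 had a similar spread of means, 17.4 ± 2.98 CPM in NP (n = 6, from 14.6 to 22.7, mouse 31 highest), 14.3 ± 1.12 in control RE (n = 4) and 14.3 ± 0.496 in stress RE mice (n = 5). Its log2 fold change was -0.22 for control RE (SE 0.12, -0.48 to 0.05, adjusted p = 0.928) and -0.21 for stress RE against NP (SE 0.11, -0.46 to 0.03, adjusted p = 0.999), and -0.13 and -0.14 without mouse 31.

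In CPM, which are scaled to total UMIs, Tet1 was the member whose control RE and NP mice did not overlap, a pattern shown by 0.969% of all genes tested in that comparison (0.217% for stress RE against control RE and 0.449% for stress RE against NP). The control RE mice were at 32.8 (mouse 66), 34.6 (72), 35 (87) and 33.5 CPM (88), and the NP mice between 36.4 and 41.8 CPM with a median of 38.6. The stress RE mice lay across both, at 31.2 (43), 33.5 (70), 39.3 (75), 37 (77) and 32.3 CPM (90). The log2 fold change of control RE against NP was -0.12 (SE 0.07, 95% interval -0.27 to 0.03, adjusted p = 0.928, edgeR's quasi-likelihood test), a 0.921-fold level, and -0.19 when scaled to total UMIs. With TMM, the scaling of that test, the groups overlapped: control RE mouse 87 deviated from the mean of all mice by 0.00 on the log2 scale, and NP mice 35 and 37 by -0.01 and -0.02. Tet1 also differed by class, and with 20 classes and unnamed clusters held at the same share in every mouse, and the others left out, the difference was -0.07 (two-sided exact permutation test, p = 0.271). The part of composition in the result was not tested beyond that value.

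Tet2 and Tet3 were close between groups. For Tet2 the NP mice stood at 82 ± 2.21 CPM, the control RE mice at 78.5 ± 4.6 and the stress RE mice at 80.1 ± 2.24. The edgeR log2 fold changes were 0.01, 0.03 and 0.04 for control RE against NP, stress RE against control RE and stress RE against NP (SE 0.07, 0.07 and 0.06). Scaling to total UMIs in place of edgeR's TMM factors turned the first to -0.06 and the last to -0.04. Tet3 stood at 124 ± 15.6 CPM in NP (n = 6, from 112 to 155, mouse 31 highest), 112 ± 7.87 in control RE and 116 ± 9.59 in stress RE mice (mouse 70 highest, 131 CPM). Its log2 fold changes were -0.08, 0.05 and -0.02 (SE 0.11, 0.12 and 0.10), and without mouse 31 the first was -0.01.

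Of the readers, Mbd2 differed little and Mbd5 leaned upwards in RE mice, and neither passed the test. Mbd2 stood at 77.2 ± 9.53, 76.9 ± 3.98 and 77.9 ± 2.97 CPM in NP, control RE and stress RE mice, with a log2 fold change of 0.07 (SE 0.09) for control RE against NP, which was 0.00 when scaled to total UMIs. Mbd5 ran from 344 CPM (mouse 31) to 525 CPM in NP mice, with a median of 492. The control RE mice held 526 (mouse 66), 487 (72), 523 (87) and 494 CPM (88), and the stress RE mice 526 (43), 455 (70), 473 (75), 487 (77) and 545 CPM (90). Of the 6 NP mice, both of batch 1 were lowest, and the other 4 lay within the range of the RE mice. The log2 fold change was 0.18 for control RE (SE 0.13, 95% interval -0.09 to 0.46, adjusted p = 0.928) and 0.16 for stress RE against NP (SE 0.12, -0.10 to 0.42, adjusted p = 0.999), and 0.11 and 0.07 without mouse 31.

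Within classes the same test was run in the 20 named classes with at least 10 nuclei in at least 3 mice of every group. Of 140 pairs of a member and a class, 125 passed the filter on low counts: Dnmt1 in 10 classes, Tet1 in 17, Tet2 and Mbd2 in 19 each, and Dnmt3a, Tet3 and Mbd5 in 20. None was called in any comparison (edgeR, adjusted p under 0.05). The share of all 167356 gene and class tests called was 0%, 0.00179% and 0% for control RE against NP, stress RE against control RE and stress RE against NP. At an unadjusted p under 0.05 there were 1, 3 and 4 of the 125 (0.8, 2.4 and 3.2%), beside 3.16, 2.62 and 3.93% of all gene and class tests, and DESeq2 gave 0 of 125, 2 of 119 and 2 of 125. The 9 unnamed clusters that could be tested, cluster 17 among them, gave 0 calls and 2, 0 and 5 of 59 at an unadjusted p under 0.05. The median SE of a class value was 0.17, 0.18 and 0.16 on the log2 scale, and the median 95% interval reached 0.38, 0.39 and 0.36 to each side.

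**Figure D3:**
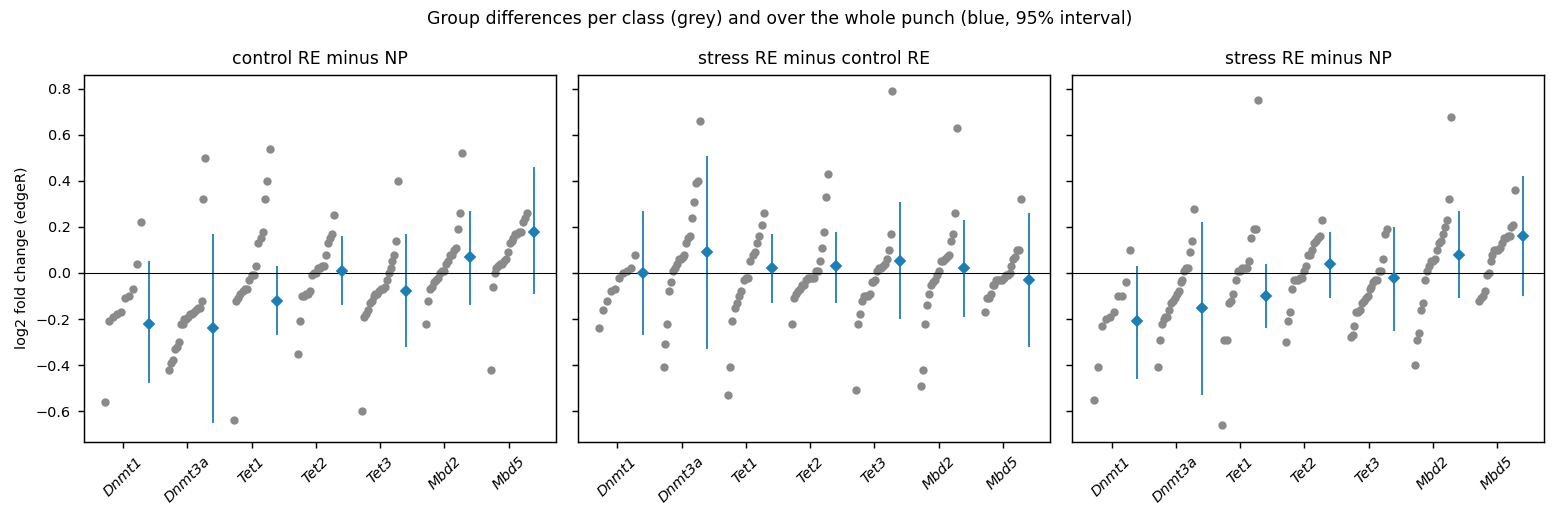
log2 fold change (y axis, edgeR) of each gene (x axis) in 3 comparisons of groups: grey points are the named classes in which the gene was tested, in rising order, and blue diamonds with lines the whole punch with its 95% interval. Most Dnmt3a points lie below 0 and most Mbd5 points above 0 in the first comparison, and none of the values passed the test.

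The values of a gene often leaned one way over the classes. For control RE against NP, Dnmt3a was lower in 18 of 20 classes, none of which passed the test, with a median log2 fold change of -0.19 (median over all genes and classes 0.00), and Mbd5 was higher in 18 of 20 with a median of 0.11. Tet3 was lower in 14 of 20 (median -0.08) and Dnmt1 in 8 of 10 (median -0.14), whereas Tet1 (-0.01), Tet2 (0.00) and Mbd2 (0.01) had medians at or near 0. Classes come from the same 15 libraries, so these counts are not independent. For stress RE against NP, Dnmt3a was lower in 14 of 20 (median -0.10), Dnmt1 in 9 of 10 (-0.18), Tet3 in 15 of 20 (-0.09), and Mbd5 was higher in 14 of 20 (0.10). For stress RE against control RE the median of every member lay between -0.05 and 0.07.

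Whether such leanings were shared by a whole library was then looked at mouse by mouse, in the 15 classes with at least 10 nuclei in every mouse. In NP mouse 31, Dnmt3a lay above the mean of the 15 mice in 15 of 15 classes, by a median of 0.75 on the log2 scale (lowest class 0.27, highest 1.04), beside 0.79 in the whole punch. Mbd5 lay below the mean in 15 of 15 classes in the same mouse (median -0.52), and Tet3 and Dnmt1 lay above it in 14 of 15 (medians 0.40 and 0.45). Neurons, glia and vascular cells of mouse 31 therefore deviated together for these 4 genes. Stress RE mouse 70 was above the mean in 15 of 15 classes for Dnmt3a (median 0.38) and in 13 for Tet3 (0.12), and control RE mouse 87, of batch 3, in 15 of 15 for Dnmt3a by a median of 0.12. NP mouse 27, of the same batch as 31 and 70, was above the mean for Dnmt3a in 4 of 15 classes. Tet2 deviated little in mouse 31 (median 0.03), as did Tet1 (0.02) and Mbd2 (-0.09).

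Values that moved with these libraries are given beside them, and their part in the result was not tested. After TMM scaling, the 25% of genes with the highest GC content in their transcripts lay 0.39 above the mean in mouse 31 (median, log2), 0.18 in mouse 27 and 0.14 in mouse 70, the 3 mice of batch 1, and between -0.09 and 0.02 in the other 12. The 25% of genes with the lowest GC content lay at -0.23, -0.05 and -0.09 in these 3 mice and between 0.00 and 0.07 in the others. The members lie on both sides: Tet3 (GC percentile 83.3), Mbd2 (74), Dnmt1 (73.6) and Dnmt3a (71.3) are rich in GC, and Tet1 (23.1), Tet2 (20.4) and Mbd5 (20.1) poor. Against all genes of the library of mouse 31, the deviation of Dnmt3a stood at percentile 92.3. Those of Dnmt1, Tet3 and Mbd5 stood at 82.9, 73 and 17, so many other genes of that library deviated as far as these 3. The percentiles take in genes with few UMIs, whose deviations hold more counting noise, and a set of genes matched for level was not compared. In mouse 87 the genes richest in GC stood at -0.04. A comparison of spans of genes, looked at before GC content, had shown no such difference in mouse 31, and both were chosen after the values were seen. As batch 1 held 0 control RE mice, batch and group cannot be fully told apart, and a fit with batch as a term called 0 members too, with log2 fold changes of control RE against NP of -0.08 for Dnmt3a and 0.09 for Mbd5 in the whole punch. The Dnmt3a difference of control RE against NP was -0.27 within batch 2 and 0.02 within batch 3, and that of Mbd5 was 0.01 and 0.07 (2 mice a group in each).

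Taking away what the rest of the library showed, each class was compared as its log2 CPM minus that of all other nuclei of the same mouse. This tends to centre the class values, so counts of higher and lower classes near balance can follow from the subtraction. Such counts say nothing about the source of the leaning. For control RE against NP, Dnmt3a was then higher in 13 classes and lower in 7 (median 0.07), and Mbd5 higher in 8 and lower in 12 (median -0.01). Tet2 was higher in 13 and lower in 6, Tet3 in 13 and 7, and Mbd2 in 9 and 10. Tet1 was not near balance, higher in 15 and lower in 2 (median 0.12), nor was Dnmt1, in 9 and 1 (median 0.13). Other comparisons were uneven too, such as Tet3 for stress RE against control RE, higher in 4 and lower in 16 (median -0.12). What lay behind this was not tested. No class passed in this test either (two-sided exact permutation test over mice, Benjamini-Hochberg over all tests, smallest adjusted p of 0.446, 0.595 and 0.406 in the 3 comparisons, with 4, 8 and 9 of 125 at an unadjusted p under 0.05). The smallest p such a test can give is 0.00476, 0.00794 and 0.00216. Over this many tests a value at that limit passes only if many others reach it too, so the absence of calls says little. Other genes were not put through this test, so how often they reach the limit or an unadjusted p under 0.05 is not known. The limit was reached by 5 values. For control RE against NP they were Dnmt3a in dentate granule-like nuclei, 0.11 higher relative to the rest, and Tet3 in pericyte- or smooth muscle-like nuclei, which differed by -0.44 (both adjusted p = 0.446). For stress RE against control RE it was Dnmt3a in pericyte- or smooth muscle-like nuclei, 0.61 higher (adjusted p = 0.595). For stress RE against NP they were Dnmt3a in the same class, 0.53 higher, and Mbd2 in Cajal-Retzius-like nuclei, 0.64 higher (both adjusted p = 0.406). In dentate granule-like nuclei cluster 0 held the largest share of the nuclei of NP and control RE mice (41.9 and 42%) and cluster 2 that of stress RE mice (39.6%). In oligodendrocyte-like nuclei these were cluster 11 (43 and 33.1%) and cluster 8 (32.1%), so values of these 2 classes compare somewhat different mixtures of clusters.

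The pairs of a gene and a class with the smallest unadjusted p, 3 for each comparison, were in classes of at most 814 nuclei, save Dnmt1 in dentate granule-like nuclei. Of the pairs in these small classes, all but Mbd5 in CA2 pyramidal-like nuclei fell to 16 UMIs or fewer in some mouse. None passed the adjustment. Groups that did not overlap in CPM were found in 3, 2 and 2 of the 125 member tests of the 3 comparisons. The share of all genes and classes with that pattern was not counted. As the pairs were picked for a small p, a lack of overlap in them is a description only. Mbd2 in Cajal-Retzius-like nuclei, an early-born neuron of the hippocampal fissure, was at 106 (mouse 43), 102 (70), 153 (75), 119 (77) and 129 CPM (90) in stress RE mice, from 14 to 22 UMIs each. The NP mice lay from 69.8 to 94.9 CPM (median 71.8) with 5 to 24 UMIs and did not overlap with these, and the control RE mice were at 68.8 (66), 85.5 (72), 109 (87) and 41.3 CPM (88). The means were 122 ± 20.4 in stress RE and 75.5 ± 9.57 CPM in NP mice, which on the log2 scale was a difference of 0.68 (SE 0.23, edgeR's quasi-likelihood test, unadjusted p = 0.0055, adjusted p = 1), with 0.79 within batch 2 and 0.63 within batch 3. Against control RE (76.2 ± 28.5 CPM) it was 0.63 (SE 0.25, unadjusted p = 0.018, adjusted p = 0.475 by edgeR).

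In pericyte- or smooth muscle-like nuclei, Tet3 and Dnmt3a took their lowest means in control RE mice. Tet3 was at 101 (mouse 66), 66.8 (72), 78 (87) and 99.1 CPM (88) in control RE mice, from 5 to 11 UMIs each, and did not overlap with the NP range of 114 to 161 CPM. In the stress RE mice it was at 169 (43), 211 (70), 125 (75), 151 (77) and 94.2 CPM (90). The log2 fold change was -0.60 for control RE against NP (SE 0.28, adjusted p = 0.997 by edgeR) and 0.79 for stress RE against control RE (SE 0.29, adjusted p = 0.963 by edgeR). Dnmt3a stood at 165 (66), 134 (72), 191 (87) and 99.1 CPM (88) in control RE and at 214 (43), 276 (70), 240 (75), 205 (77) and 241 CPM (90) in stress RE mice, which did not overlap. Its log2 fold change between these groups was 0.66 (SE 0.27, adjusted p = 0.963 by edgeR), and 17 to 23 UMIs a mouse in stress RE and 7 to 22 in control RE lay behind it.

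Mbd5 in CA2 pyramidal-like nuclei was at 515 (mouse 43), 414 (70), 451 (75), 437 (77) and 404 CPM (90) in stress RE mice and ran from 249 CPM (mouse 31) to 437 CPM in NP mice, with a median of 376. The groups overlapped, and the log2 fold change of 0.36 (SE 0.13, edgeR's quasi-likelihood test, adjusted p = 0.664) was 0.24 without mouse 31. Tet1 in thalamic or midbrain-type GABAergic-like nuclei was 0.75 higher in stress RE than in NP mice (SE 0.32, adjusted p = 1 by edgeR, 4 and 6 mice, with stress RE mouse 43 left out for its 7 nuclei), but 1.65 within batch 2 and -0.22 within batch 3. Dnmt3a in the same class was at 181 ± 25.3 CPM in control RE (n = 4) and 246 ± 75.4 CPM in NP mice (n = 6, from 174 to 365, mouse 31 highest). The difference was -0.38 on the log2 scale (SE 0.20, adjusted p = 1 by edgeR), and -0.26 without mouse 31. Dnmt1 in dentate granule-like nuclei was at 12.8 (66), 13.3 (72), 11.8 (87) and 13.2 CPM (88) in control RE mice against 13.2 to 17.6 CPM in NP mice, where both mice of batch 1, 27 and 31, were highest. Its log2 fold change was -0.18 (SE 0.09, adjusted p = 0.979 by edgeR), and -0.11 within batch 2 and -0.10 within batch 3.

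The other genes of the pathway gave the same count of calls. Of a list of 51 partners of DNA methylation writers, erasers and readers, 50 could be tested in the whole punch and 0 were called in each comparison (edgeR, with 0, 0 and 1 at an unadjusted p under 0.05). For control RE against NP, 14 of the 50 had a higher value in control RE mice, with a median log2 fold change of -0.08 beside -0.02 over all genes. The 7 writers and writer partners tested, such as Uhrf1, which brings Dnmt1 to newly copied DNA, had a median of -0.14. For the 15 genes that act with the erasers, such as the glycosylase Tdg, it was -0.08. The 15 readers and their partners were at -0.08 and the 13 partners of Mbd2 and Mbd3 in NuRD at -0.05. In the classes, 0 of 587 tests of these genes were called in each comparison, with 24, 12 and 20 at an unadjusted p under 0.05, and DESeq2 called 0 of them too.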

How the data were processed

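Nuclei of 15 mice were profiled with 10x Chromium 3′ v3.1 chemistry. The deposited values are raw UMI counts per gene and barcode, which the authors made with Cell Ranger (7.1.0 in the methods and processing notes, 7.0.0 in the file headers) on the mm10 reference of 10x, keeping barcodes called as nuclei. The authors' SoupX, DoubletFinder and SCTransform steps are not in these counts. Groups and batches came from the labels.

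Kept barcodes had at least 200 genes and at most 5% mitochondrial UMIs, and doublets were marked with Scrublet at 0.8% per 1000 barcodes of a library. Clustering with scanpy 1.11.5 (Python 3.11.15, igraph 0.11.9) used 2000 variable genes without the members and their pathway, 30 principal components, 15 neighbours and Leiden resolution 2, without joining libraries. It was the last of 3 clusterings run and was chosen on marker separation before any member value was computed. A cluster of at least 50 nuclei was named where at least 3 markers of a list were detected (5 CPM and 2-fold the median cluster), the mean log2 fold of the list was at least 2 and 0.4 above the next list, and no leading gene went against it. These thresholds were set with the clusters in view. No file gave the authors' annotation, so the names are rebuilt and may differ from theirs.

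Counts were summed per mouse and class (at least 10 nuclei) and tested with edgeR 4.0.16 in R 4.3.3 (filterByExpr, TMM, quasi-likelihood F-test, all 3 groups in one fit, called at an adjusted p under 0.05 after Benjamini-Hochberg adjustment over all genes of a fit). The authors applied DESeq2 to such sums, and its version 1.42.0 was run here as an alternative. Tests of class minus rest and of levels were exact permutation tests on log2 CPM with 0.5 UMIs added to each sum. The edgeR, DESeq2 and permutation steps were tested on simulated data. Spans came from GENCODE models for 99.9% of the genes tested, and GC content from all transcripts of a gene. Named pairs were the 3 with the smallest unadjusted p in each comparison and the genes most alike were the 3 of highest r among genes with at least 5 CPM in 3 classes. The members and gene lists were chosen with earlier results of these data known. Intervals and SEs measure the spread between mice.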

Additional observations from a re-analysis of the deposited data

Results flagged for a closer look

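In 42 groups of 4 to 6 mice, the highest or lowest mouse was compared with its group by the gap to its nearest neighbour over the range of the group (Dixon's test at 95%). It stood out in 6 of the 42, and the cause was not tested. Chance gives about 1 in 20 among independent groups, which these are not: all come from the same 15 libraries, and 21 of them from pairs of a gene and a class chosen for a small p. Over the whole punch Dnmt3a stood out in each group: NP mouse 31 at 412 CPM, stress RE mouse 70 at 310 CPM and control RE mouse 87 at 270 CPM. Mouse 31 was also high for Tet3 at 155 CPM, and for Dnmt3a in pericyte- or smooth muscle-like nuclei at 343 CPM. For Mbd2 in Cajal-Retzius-like nuclei, NP mouse 73 stood out at 94.9 CPM, still below the lowest stress RE mouse at 102 CPM.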

How the results depend on the processing

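Of 945 recomputed values, 904 kept their direction or stayed within the limit set for a count, 7 counts moved and 34 values changed sign, and the cause was not tested. Under every setting, leaving out each mouse included, 0 members were called by edgeR, DESeq2 or the test of class minus rest, with the exception of Dnmt1 for stress RE against NP with classes held at the same share, 1 of 7 by its own exact permutation test at an unadjusted p of 0.0281. Without a filter on low counts 1 of the pathway tests was called, Mbd6 in CA2 pyramidal-like nuclei, control RE against NP (log2 fold change -1.02, adjusted p = 0.0257, against -1.07 and 0.864 with the filter, edgeR). Neighbours in the order of levels that differed were 2 with the mean over nuclei, and 0 to 2 when a mouse was left out. No paired analysis was possible because each mouse has a number of its own, so that groups share none.

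Whole-punch log2 fold changes that changed sign were as follows. Within batch 3 the values for control RE against NP were 0.03 for Dnmt1, 0.02 for Dnmt3a, 0.04 for Tet3 and -0.03 for Mbd2. Within batch 3 those for stress RE against control RE were -0.22 for Dnmt3a, -0.02 for Tet1, -0.13 for Tet2, -0.20 for Tet3 and -0.06 for Mbd2, and those for stress RE against NP -0.07 for Tet2, -0.09 for Mbd2 and -0.07 for Mbd5. The 1 pair that changed sign was Tet1 in thalamic or midbrain-type GABAergic-like nuclei (stress RE against NP), from 0.75 to -0.22 within batch 3. Within batch 2 the whole-punch values were -0.09 for Tet2 and -0.04 for Mbd2 (control RE against NP), 0.02 for Tet3 (stress RE against NP) and 0.10 for Mbd5 (stress RE against control RE). With batch as a term, stress RE against control RE gave -0.03 for Dnmt3a and 0.04 for Mbd5. With the same class shares, control RE against NP gave -0.03 for Tet2 and -0.01 for Mbd2, and stress RE against NP -0.03 for Tet2. Scaling to total UMIs gave -0.06 and -0.04 for Tet2. Leaving out each mouse gave, for stress RE against control RE, -0.07 to 0.21 (Dnmt3a), -0.01 to 0.05 (Tet1), -0.04 to 0.06 (Dnmt1, which was 0.00 with all mice, 0.08 within batch 2 and -0.14 within batch 3), -0.01 to 0.11 (Tet3), -0.01 to 0.04 (Mbd2) and -0.10 to 0.01 (Mbd5), for control RE against NP -0.02 to 0.03 (Tet2) and for stress RE against NP -0.09 to 0.04 (Tet3).

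Both other clusterings gave 0 calls too, with 1, 3 and 5 of 122 and 3, 2 and 5 of 119 tests at an unadjusted p under 0.05. Tet1's highest class became ependymal-like with the mean over nuclei and when any of 6 mice was left out, and the lowest of Dnmt3a progenitor- or neuroblast-like without control RE mouse 72. Dnmt1, with few UMIs, passed the filter on low counts in 10 of 20 classes.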
